A study of Mus musculus with 4 samples.

Results

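The genes described here are 43 sarcomere, calcium handling, myogenic and fibre type genes of skeletal muscle, of 22096 gene symbols in the sciatic nerve libraries of control and Zeb2 cKO mice. They were chosen by symbol, with earlier results of these libraries known, and all 43 symbols had rows in both tables. They were divided by role into 14 genes of fast fibres, 8 of slow fibres, 5 embryonic or neonatal genes, 7 genes of all fibres, 4 genes of satellite cells, myogenesis and the neuromuscular synapse, and 5 genes shared with non-muscle cells. Both groups were mice of mixed strain background at postnatal day 7, and each sample was RNA of pooled sciatic nerves. The controls carry the genotype Control and the mutants Zeb2 cKO, a conditional knockout of the zinc finger transcription factor gene Zeb2. The Cre line, the deleted exons and the genotype behind the word Control are not given in the sources at hand. The labels describe 2 samples per group, and the tables analysed hold 1 library per group, so no difference below has a replicate behind it and none was tested.

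A skeletal muscle fibre contracts when calcium released through Ryr1 binds troponin C, troponin I lets go of actin, tropomyosin moves aside, and the myosin heads pull. Most of these proteins come in a fast form, a slow form that the heart often shares, and a developmental form, each from its own gene. In the first weeks after birth rodent limb muscle replaces embryonic and neonatal myosins with adult ones. A sciatic nerve has no muscle fibres of its own and runs between thigh muscles. Tropomyosins, desmin and the calcium pump Atp2a2 are also made by smooth muscle, fibroblasts or other cells.

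FPKM counts sequenced fragments relative to transcript length and to all mapped fragments, so levels compare between genes. Paired values below give the control first and Zeb2 cKO after it. The control library held an estimated 29563339 reads on transcripts and the Zeb2 cKO library 20144477. Intervals in parentheses are 95% counting intervals from estimated reads; differences between animals or pools are outside them. Zeb2 itself (chromosome 2, 44839154 to 44968799, mm9) read 34.4 and 19.5 FPKM, so the mutant library held 56.8% of the control level (1.76-fold lower, 1.70 to 1.82). That row spans the whole transcript and overlaps Gm13476 and Mir5129. The Schwann cell markers of the labelled tissue were present in both libraries, the myelin genes Pmp22 at 12153 and 471 FPKM and Prx at 890 and 34.3 FPKM. Of 6 quantified Schwann cell markers 4 were 2-fold or more lower.

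Skeletal muscle genes were lower in the Zeb2 cKO library as a group. A gene was counted as lower or higher when log2((FPKM Zeb2 cKO + 1)/(FPKM control + 1)) reached 2-fold, over genes with a mean of at least 1 FPKM. Of the 43 members 42 passed that filter. Of these 38 were lower and 0 were higher, where 6.25% of all 12903 measured genes were lower and 8.59% were higher. At 4-fold, 32 members were lower (76.2%) against 2.46% of all genes. The members' median log2 ratio was -2.77, beside 0.18 for all genes. The 38 members that are not shared with non-muscle cells summed to 9879 and 1226 FPKM, 8.06-fold apart. Their reads were 1.72% of all estimated control reads and 0.215% of those from Zeb2 cKO. In RNA of whole tissue, fewer muscle cells and less RNA per muscle cell cannot be told apart. With 1 library per group, the amount of adjoining muscle taken with the nerves cannot be told apart from genotype either. The 4 members within 2-fold were Tpm3, Atp2a2, Casq2 and Tnnt2.

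**Figure D1:**
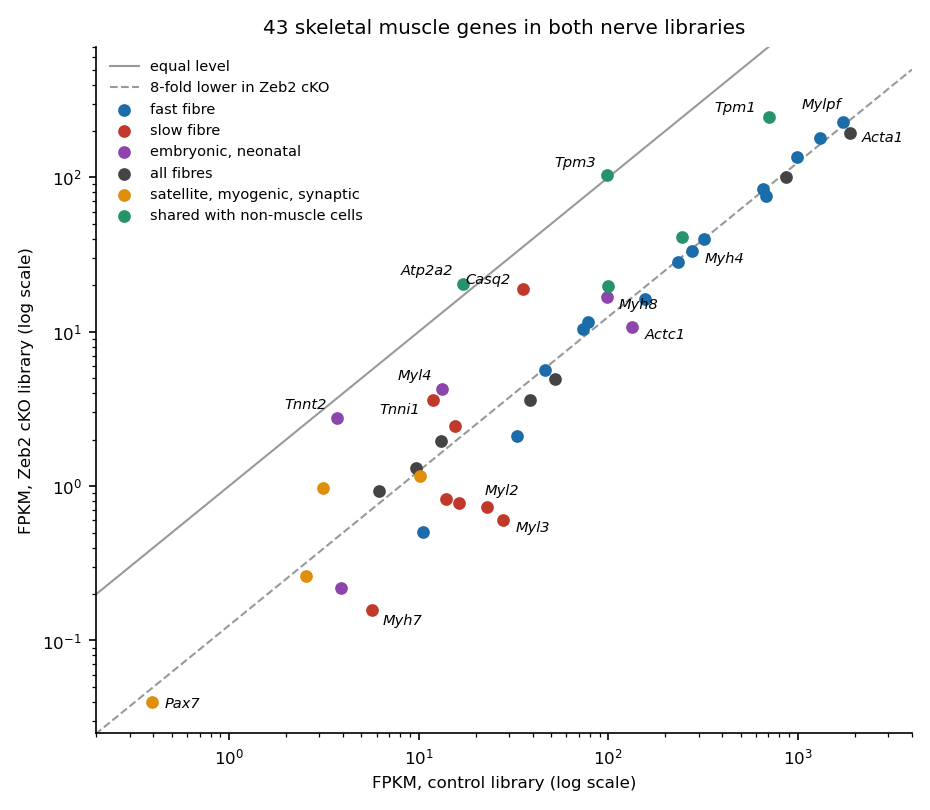
FPKM of the 43 members in the control library (x axis, log scale) against the Zeb2 cKO library (y axis, log scale), 1 point per gene, coloured by role; the solid line marks equal level and the dashed line 8-fold lower. Most fast fibre and all-fibre genes lie along the dashed line, Myl2, Myl3 and Myh7 lie below it, and Tpm3, Atp2a2, Casq2 and Tnnt2 lie nearest to the solid line.

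To show what the members' promoters look like, the 250 bases before the RefSeq transcript start are printed for 5 members that differ in ratio and role, 5′ to 3′ on the gene's strand, with each E-box (CANNTG, bound by myogenic factors such as Myod1 and Myog) in capitals. They are Mylpf of fast fibres, Acta1 of all fibres, Myl3 with the highest slow fibre ratio, Casq2 with the lowest slow fibre ratio, and the synaptic Chrna1. Positions are on GRCm38.p6, another build than the mm9 of the tables: Mylpf chr7:127211358-127211607, plus strand; Acta1 chr8:123894776-123895025, minus strand; Myl3 chr9:110763428-110763677, plus strand; Casq2 chr3:102086165-102086414, plus strand; Chrna1 chr2:73580339-73580588, minus strand.
Mylpf: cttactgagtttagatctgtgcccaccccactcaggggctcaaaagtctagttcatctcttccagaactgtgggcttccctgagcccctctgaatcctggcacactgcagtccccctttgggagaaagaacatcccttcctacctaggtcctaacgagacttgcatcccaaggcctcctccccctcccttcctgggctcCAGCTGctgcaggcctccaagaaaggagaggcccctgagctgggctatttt
Acta1: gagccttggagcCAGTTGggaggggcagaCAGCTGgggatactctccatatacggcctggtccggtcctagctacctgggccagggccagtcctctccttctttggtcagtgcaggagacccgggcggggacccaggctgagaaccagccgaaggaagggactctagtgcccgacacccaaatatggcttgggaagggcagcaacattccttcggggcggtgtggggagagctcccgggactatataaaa
Myl3: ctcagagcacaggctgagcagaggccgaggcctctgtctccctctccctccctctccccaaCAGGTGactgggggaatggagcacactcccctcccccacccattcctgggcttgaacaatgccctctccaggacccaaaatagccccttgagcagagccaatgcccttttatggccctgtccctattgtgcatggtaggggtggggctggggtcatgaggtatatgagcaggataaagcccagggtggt
Casq2: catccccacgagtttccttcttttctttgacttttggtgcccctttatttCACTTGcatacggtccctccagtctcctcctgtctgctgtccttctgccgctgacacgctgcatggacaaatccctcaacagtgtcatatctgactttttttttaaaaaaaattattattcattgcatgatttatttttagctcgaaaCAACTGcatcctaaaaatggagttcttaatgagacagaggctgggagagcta
Chrna1: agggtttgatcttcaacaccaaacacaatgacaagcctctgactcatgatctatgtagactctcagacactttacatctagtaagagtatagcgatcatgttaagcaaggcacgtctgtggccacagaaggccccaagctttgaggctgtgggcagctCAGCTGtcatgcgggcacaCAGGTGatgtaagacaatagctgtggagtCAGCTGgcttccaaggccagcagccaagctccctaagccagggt
The E-box of Mylpf has the letters CAGCTG, as has 1 of the 2 in Acta1 and 2 of the 3 in Chrna1, while the boxes of Myl3 and Casq2 have other centres. RefSeq promoters were at hand for 36 members, 44 promoters in all since 7 members have several. Of these 44, 18 (40.9%) held CAGCTG, which reads the same on both strands, against 13.0% of all 32851 promoters of this length. CANNTG, which includes CAGCTG, was in 84.1% of member promoters and in 66.2% of all. CATTCC, the M-CAT letters, searched on both strands, was in 22.7% and 12.6%, and TATAAA, on both strands, in 18.2% and 12.4%. Of the remaining patterns searched, CC and GG set 6 bases apart, as in the CArG box, was in 77.3% of member promoters and 67.1% of all. CTA and TAG set 4 bases apart, as in a MEF2 site, was in 2.27% and 3.20%. These are matches of letters in a window and no measure of binding.

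The fast fibre genes were lower by similar amounts. Mylpf, the fast regulatory light chain (chromosome 7, 134355122 to 134357801, mm9), had 1728 and 229 FPKM, 7.54-fold lower (7.30 to 7.78). Myl1, the fast essential light chain (chromosome 1, 66970870 to 66991630), had 1310 and 179 FPKM, 7.32-fold lower (7.07 to 7.57). Its 2 rows, which begin at different promoters, were 8.48-fold lower (338 and 39.9 FPKM) and 6.98-fold lower (972 and 139 FPKM). Both light chains stood near the same ratio at very high levels. The 3 fast troponins did likewise. Tnnc2, the calcium sensor, was at 995 and 136 FPKM (7.31-fold). Tnni2, the inhibitory subunit, was at 680 and 76.0 FPKM (8.95-fold). Tnnt3, the tropomyosin-binding subunit, was at 653 and 84.7 FPKM (7.71-fold), and its locus overlaps Gm14492 in the tables. Without strand, overlapping genes cannot be told apart.

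Fast genes outside the filaments had ratios in a nearby range. Atp2a1, the fast calcium pump of the sarcoplasmic reticulum, whose rows overlap Rabep2, was at 233 and 28.2 FPKM, 8.24-fold lower (7.90 to 8.59). Casq1, the calcium store protein of fast fibres, was at 156 and 16.4 FPKM, 9.50-fold lower (8.82 to 10.2). Pvalb, parvalbumin, a soluble calcium buffer of fast fibres, was at 322 and 39.6 FPKM, 8.11-fold lower. The calcium pump, the calcium store and the soluble buffer were thus 8.11-fold to 9.50-fold lower. The fast light chains and troponins were 7.31-fold to 8.95-fold lower. Actn3, the fast alpha-actinin of the Z-disc, was 6.81-fold lower (78.5 and 11.5 FPKM), the Z-disc protein Myoz1 7.08-fold lower (73.6 and 10.4 FPKM) and the fast myosin-binding protein Mybpc2 8.13-fold lower (46.1 and 5.68 FPKM). Of the 14 fast fibre members 14 were lower, with a median log2 ratio of -2.94 and a median FPKM ratio of 8.12. Apart from Myh1 and Myh2, the other 12 lay between 6.81-fold and 9.50-fold.

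The myosin heavy chain genes did not share 1 ratio. Of the 6 heavy chain members all but Myh7 lie in a cluster on chromosome 11 (66891802 to 67122135, mm9), in the order Myh3, Myh2, Myh1, Myh4, Myh8. Myh4, the heavy chain of the fastest IIb fibres, was at 276 and 33.6 FPKM, 8.22-fold lower (7.98 to 8.46). Myh1, of IIx fibres, was at 33.0 and 2.13 FPKM, 15.5-fold lower (13.8 to 17.4). Myh2, of IIa fibres, was at 10.6 and 0.503 FPKM, 21.1-fold lower (16.7 to 26.9). The 3 adult fast myosins thus ordered from IIb to IIa in their ratios, although the intervals of Myh1 and Myh2 overlap, and Myh4 was the most abundant in both libraries. Myh8, the neonatal myosin, was at 98.0 and 16.9 FPKM, 5.81-fold lower (5.57 to 6.06), an interval wholly below that of Myh4. Myh3, the embryonic myosin, was at 3.90 and 0.218 FPKM, 17.9-fold lower (12.5 to 26.4). Myh7, the slow myosin on chromosome 14 (55589525 to 55613386), had 5.66 and 0.158 FPKM, 35.9-fold lower (23.8 to 56.8), with an estimated 23 reads in the Zeb2 cKO library, and its locus overlaps D830015G02Rik and Mir208b.

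As shares of the 6 heavy chains within a library, Myh4 was 64.6% of the FPKM in the control and 62.8% in the Zeb2 cKO library. Myh8 was 22.9% (22.7 to 23.2) and 31.6% (30.5 to 32.6). Myh1 was 7.73% and 3.98%, Myh2 2.48% and 0.941%, Myh7 1.33% and 0.295%, and Myh3 0.913% and 0.408%. The heavy chain set of the Zeb2 cKO library thus held relatively more of the neonatal form and less of the IIx, IIa, slow and embryonic forms. Myh1, Myh2 and Myh4 together were 74.8% (74.5 to 75.1) and 67.7% (66.7 to 68.8). These genes share sequence. In GENCODE M21 transcripts, 26.7% of the 50-base windows of Myh1, 26.7% of Myh2, 18.6% of Myh4 and 19.9% of Myh8 occur unchanged in another myosin heavy chain of the 7 compared, against 3.66% of Myh3 and 22.6% of Myh7, whose cardiac neighbour Myh6 was among those compared. How reads were divided between them is not given in the sources at hand, so the values of the minor myosins are uncertain.

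The slow fibre genes had the widest spread of ratios, on both sides of the fast ones. Myl3, the slow and ventricular essential light chain (chromosome 9, 110666185 to 110672298), had 27.8 and 0.606 FPKM, 45.8-fold lower (26.7 to 85.9). Myl2, the slow and ventricular regulatory light chain (chromosome 5, 122550989 to 122556863), had 22.9 and 0.728 FPKM, 31.5-fold lower (17.5 to 63.1). Tnnc1, the slow and cardiac troponin C (chromosome 14, 32021498 to 32024897), had 16.3 and 0.779 FPKM, 20.9-fold lower (12.1 to 39.3). Together with Myh7, these lie further apart between the libraries than any of the 12 fast genes above. The 12 leave out the fast Myh1 and Myh2, at 15.5-fold and 21.1-fold, and the ratio of Myh2 was above that of Tnnc1. Mb, myoglobin, the oxygen store of oxidative fibres, was at 13.9 and 0.830 FPKM, 16.7-fold lower (10.6 to 27.8), and a row of it overlaps Apol6. In the Zeb2 cKO library these values rest on few reads, an estimated 13 for Myl3, 11 for Myl2, 13 for Tnnc1 and 19 for Mb.

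The other slow members had smaller ratios. Tnnt1, slow troponin T, was at 15.6 and 2.46 FPKM, 6.34-fold lower (4.80 to 8.53), an interval that holds the fast median of 8.12. Tnni1, slow troponin I, was at 11.9 and 3.64 FPKM, 3.26-fold lower (2.61 to 4.12). Casq2, the calsequestrin of slow and cardiac muscle (chromosome 3, 101890433 to 101950435), had 35.7 and 19.1 FPKM, 1.87-fold lower (1.75 to 2.01), and stayed within 2-fold. Of the 8 slow members 7 were lower. The counting intervals of 5 of the 8 (Myh7, Myl2, Myl3, Tnnc1 and Mb) lay above the median ratio of the fast genes and those of 2 (Tnni1 and Casq2) below it. Of the 14 fast genes themselves, 4 had intervals above that median, 6 below it and 4 held it, so missing it is not particular to slow genes. The median FPKM ratio of the slow members was 18.8, against 8.12 for the fast members. On the log2(FPKM + 1) scale the order was the other way, -2.77 against -2.94, because the pseudocount takes more from genes of low level. With a pseudocount of 0.1 the slow median was -4.07.

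**Figure D2:**
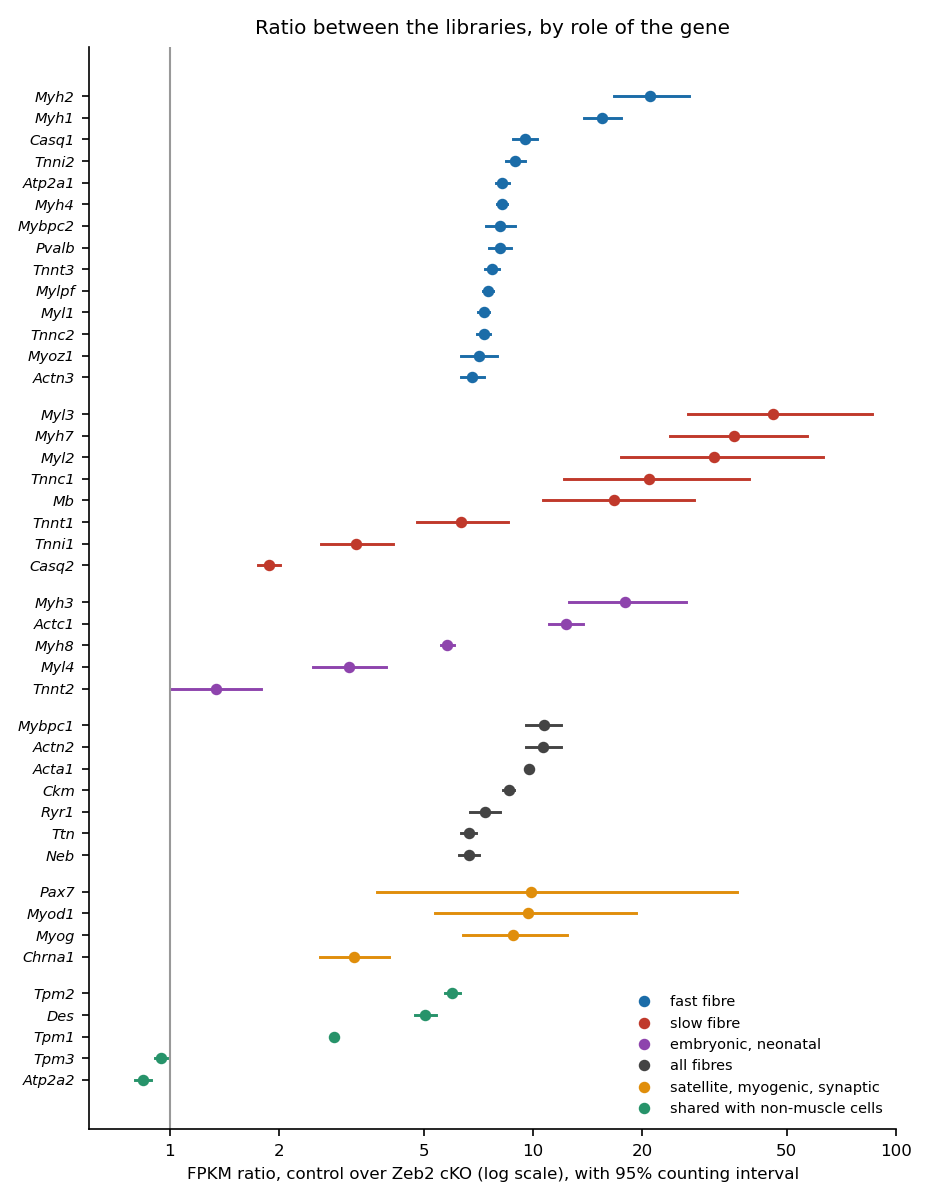
FPKM ratio of control over Zeb2 cKO for each of the 43 members (x axis, log scale), grouped by role; points are ratios and bars are 95% counting intervals, which do not include the spread between animals or pools. Of the fast members 12 lie between 6.81 and 9.50, and Myh1 and Myh2 lie at 15.5 and 21.1. The slow members run from 1.87 for Casq2 to 45.8 for Myl3.

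Set side by side as fast and slow counterparts within a library, the pairs differed in direction. For troponin C the slow form Tnnc1 was 1.61% (1.46 to 1.77) of the pair in the control and 0.569% (0.305 to 0.966) in the Zeb2 cKO library. For troponin I the slow form Tnni1 was 1.72% (1.56 to 1.88) and 4.57% (3.70 to 5.58). For troponin T the slow form Tnnt1 was 2.33% (2.14 to 2.54) and 2.82% (2.14 to 3.65), with overlapping counting intervals. So the slow share of the thin filament regulators was lower for 1 subunit, higher for another and not told apart for the last. Of the light chains Mylpf, Myl1, Myl2 and Myl3, the slow pair made up 1.64% and 0.326%. Casq2 was 18.7% of the calsequestrins in the control and 53.8% in the Zeb2 cKO library, and Atp2a2 was 6.88% and 42.0% of the calcium pump pair with Atp2a1. Non-muscle cells also make Atp2a2, so its share is no measure of fibre type alone. Of its 20.5 FPKM in the Zeb2 cKO library 19.5 came from a non-coding row, and its coding row kept in the sum was at 5.76 and 0.938 FPKM. With the Atp2a2 row that was left out for its status, the share of Atp2a2 was 15.5% and 67.6%, the larger part of the pair in the Zeb2 cKO library. In both libraries the fast forms made up the larger part of each troponin pair and of the light chains.

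**Figure D3:**
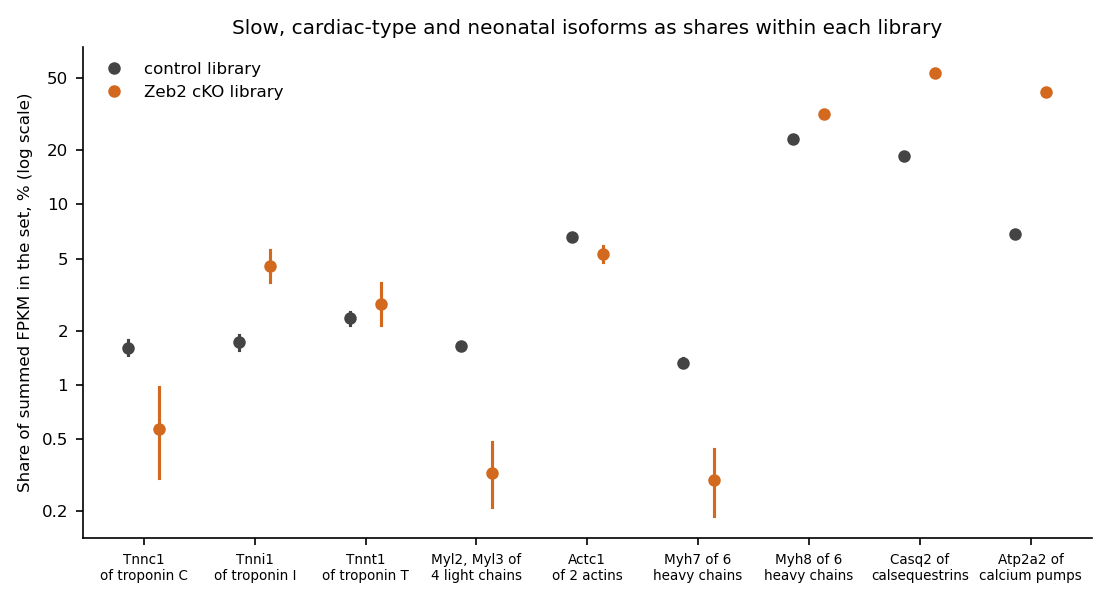
Share of slow, cardiac-type or neonatal genes in the summed FPKM of their set (y axis, percent, log scale) in the control and Zeb2 cKO libraries, from rows with the status OK, with 95% counting intervals. The shares of Tnnc1, of Myl2 with Myl3 and of Myh7 are lower in the Zeb2 cKO library, and those of Tnni1, Myh8, Casq2 and Atp2a2 are higher.

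Developmental members other than the myosins also differed among themselves. Actc1, the cardiac actin that fetal skeletal muscle uses (chromosome 2, 113873025 to 113878547), had 133 and 10.8 FPKM, 12.3-fold lower (11.1 to 13.7). Its share of the 2 striated actins Acta1 and Actc1 was 6.62% (6.47 to 6.78) in the control and 5.30% (4.78 to 5.86) in the Zeb2 cKO library. The 2 actins share 0 windows of 50 bases in the transcripts compared. Myl4, the embryonic and atrial light chain, was at 13.3 and 4.28 FPKM, 3.11-fold lower (2.47 to 3.94). Tnnt2, the cardiac and embryonic troponin T, was at 3.71 and 2.78 FPKM, 1.34-fold lower (1.01 to 1.79), and stayed within 2-fold. Its main row NM_011619 was at 2.90 and 2.77 FPKM, and the rest of the control level came from NM_001130178 (0.806 FPKM), which was near 0 in the other library. Of the 5 embryonic and neonatal members 4 were lower, and their intervals lay on both sides of the fast median, 2 (Myh3 and Actc1) above it and 3 (Myh8, Myl4 and Tnnt2) below.

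Genes that fast and slow fibres share gave ratios in a range near that of the fast genes. Acta1, skeletal actin of the thin filament (chromosome 8, 126415667 to 126418636), had the highest level of the 43 in the control library, 1879 FPKM, and 193 FPKM in the other, 9.73-fold lower (9.49 to 9.97). Ckm, the muscle creatine kinase that regenerates ATP, was at 867 and 101 FPKM, 8.57-fold lower. Actn2, the alpha-actinin of all sarcomeres, was at 52.4 and 4.91 FPKM, 10.7-fold lower, and Mybpc1, a myosin-binding protein, at 38.6 and 3.60 FPKM, also 10.7-fold lower. The longest proteins had somewhat smaller ratios. Neb, nebulin, which runs along the thin filament, was at 13.1 and 1.97 FPKM (6.65-fold, 6.24 to 7.09). Ttn, titin, the spring of the sarcomere, was at 6.18 and 0.928 FPKM (6.66-fold, 6.35 to 6.99). Ryr1, the calcium release channel, whose locus contains Mir1963, was at 9.65 and 1.31 FPKM (7.37-fold). Of these 7 members 7 were lower, with a median log2 ratio of -3.09 and FPKM ratios from 6.65 to 10.7. Their intervals too missed the fast median, 4 lying above it and 3 below.

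Genes of muscle stem cells and of myogenesis were at low levels in both libraries. Pax7, the transcription factor that marks satellite cells, was at 0.394 and 0.0399 FPKM, an estimated 60 and 4 reads, a ratio of 9.87 (3.71 to 36.5), and did not reach the mean of 1 FPKM. Myod1, which commits cells to the muscle lineage, was at 2.54 and 0.263 FPKM, 9.68-fold lower (5.37 to 19.2). Myog, which drives their differentiation, was at 10.2 and 1.16 FPKM, 8.84-fold lower (6.44 to 12.4). The intervals of all 3 regulators held the fast median of 8.12, so at this depth their ratios could not be told apart from it. Chrna1, the acetylcholine receptor subunit of the neuromuscular synapse and of young fibres, was at 3.12 and 0.972 FPKM, 3.21-fold lower (2.59 to 4.02), below that median.

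The 5 members that non-muscle cells also express had the smallest median FPKM ratio of the 6 groups, 2.84, and 3 of 5 were lower. Their median log2 ratio of -1.50 was close to the -1.49 of the satellite, myogenic and synaptic genes, which are low in level. Tpm2, beta-tropomyosin, was at 246 and 41.0 FPKM, 5.995-fold lower (5.73 to 6.28). Des, desmin, the intermediate filament of muscle cells (chromosome 1, 75356919 to 75364290), had 100.03 and 19.8 FPKM, 5.05-fold lower (4.73 to 5.39). Tpm1 as a whole was at 703 and 248 FPKM, 2.84-fold lower (2.77 to 2.91). All 5 members had counting intervals below the fast median. Tpm3, the slow fibre and cytoskeletal tropomyosin, was at 98.1 and 104 FPKM, a log2 ratio of 0.08 that became -0.10 after rescaling the Zeb2 cKO values to the median gene and -0.02 with upper quartile scaling. Tpm3 had 1 row, so its slow fibre and cytoskeletal transcripts were not told apart. Atp2a2, the calcium pump of slow fibres, heart and the endoplasmic reticulum of other cells, was at 17.2 and 20.5 FPKM, 1.19-fold higher (1.13 to 1.25), and stayed within 2-fold. The summed FPKM of smooth muscle and non-muscle contractile genes, listed with the markers of other tissues, was 4024 and 5336 in the same libraries. Of these sums 1166 and 2146 FPKM came from the intermediate filament gene Vim, which is in that list. The part of the listed genes in these ratios was not tested.

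The transcripts of Tpm1 split by their 3′ end. Tpm1 (chromosome 9, minus strand) makes striated muscle, smooth muscle and cytoskeletal tropomyosins by alternative promoters, internal exons and last exons. The 3 rows that end at the proximal site (66875697, mm9) summed to 608 and 72.0 FPKM, 8.45-fold lower. The 5 rows that end at the distal site (66870400) summed to 90.6 and 169 FPKM, 1.87-fold higher. The proximal rows were 86.4% of Tpm1 FPKM in the control and 29.0% in the Zeb2 cKO library, and the distal rows 12.9% and 68.3%. Of the proximal rows, the 2 that start at the upstream promoter (66897020) were 10.3-fold lower, from 578 to 56.4 FPKM, most of it in NM_001164248 (572 and 56.3 FPKM, 10.2-fold). The 1 proximal row from the downstream start (66891678) was 1.93-fold lower, from 30.0 to 15.6 FPKM. The 2.84-fold ratio of the gene thus joined a set of transcripts with a ratio like that of the fast fibre genes and a set that was higher. Cufflinks divides reads among overlapping transcripts by a model, so these values are estimates.

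**Figure D4:**
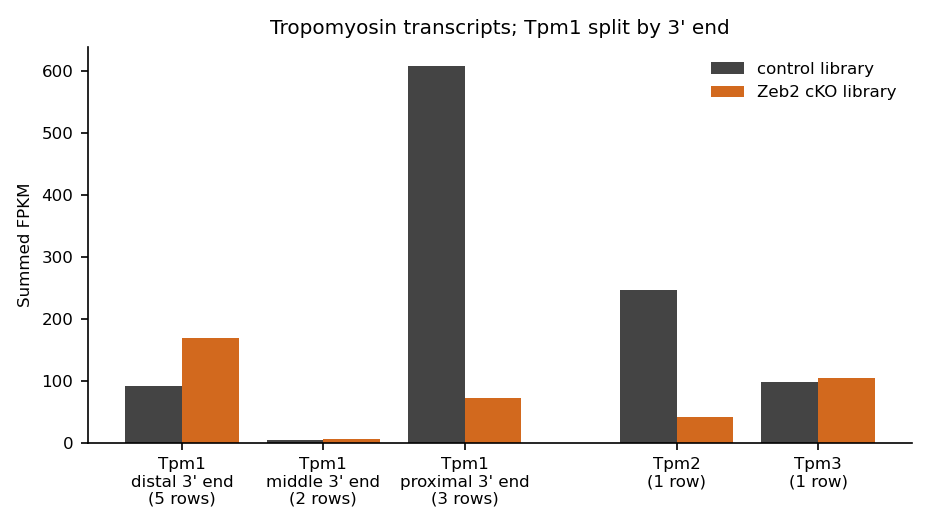
Summed FPKM (y axis) of Tpm1 transcripts by 3′ end, and of Tpm2 and Tpm3, in the control and Zeb2 cKO libraries (1 library each, no error bars). The proximal Tpm1 rows go from 608 to 72.0 FPKM and the distal rows from 90.6 to 169. Tpm3, a single row that does not separate its transcripts, is at 98.1 and 104.

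Rows of Atp2a2 also differed in direction, here between rows with the same boundaries. The gene makes the muscle pump SERCA2a and the widely expressed SERCA2b by alternative 3′ processing, and the tables do not say which row is which. NM_009722 was at 5.76 and 0.938 FPKM, 6.14-fold lower, while the non-coding NR_027838, with the same boundaries, was at 11.4 and 19.5 FPKM, 1.71-fold higher. NM_001110140, with another boundary, was at 25.4 and 38.3 FPKM but had the status LOWDATA and was left out of the sum. With it Atp2a2 was at 42.6 and 58.8 FPKM, 1.38-fold higher. Of the 8 transcript rows of Tnnt3, 7 were above 4 FPKM in both libraries, and their ratios ran from 4.53 to 12.8.

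Other genes of muscle, in 5 lists with no member among the 43, were lower in 60 of 84 measured genes over all 5 and higher in 2. Of 16 genes of excitation-contraction coupling 14 were lower, with a median log2 ratio of -1.92, beside the 6.25% of all genes. Sln, sarcolipin, a regulator of the calcium pump, was at 63.4 and 5.91 FPKM (10.7-fold), and Sypl2, a protein of the triad junction, at 40.7 and 4.23 FPKM (9.63-fold). Asph, a broadly expressed gene with a junctional form, was at 25.3 and 22.9 FPKM, and Cacna2d1 at 6.47 and 5.24 FPKM. Of 28 Z-disc and M-band genes 25 were lower, with a median of -1.89. Ldb3, Tcap and Smpx, the 3 highest by level, were 8.16-fold, 7.14-fold and 6.90-fold lower, while Flnc, Fbxo32 and Xirp1 stayed within 2-fold. Of 16 muscle isoenzymes of energy metabolism 12 were lower, with a median of -2.40, among them the glycolytic Eno3 (270 and 45.1 FPKM, 5.99-fold) and Pgam2 (141 and 15.4 FPKM, 9.19-fold) and the glycogen phosphorylase Pygm (94.1 and 18.7 FPKM, 5.02-fold). Pfkm, Slc2a4, Gys1 and Phka1 stayed within 2-fold, and 14 of 16 were lower relative to the median gene.

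The myogenic, fusion and synaptic list and the dystrophin list were mixed. Of 23 genes in the first, 14 were measured, 6 lower (Tmem8c, Myf6, Rapsn, Vgll2, Cdh15 and Fgfr4) and 2 higher, with a median of -0.82. Over all measured genes 6.25% were lower and 8.59% were higher, so 2 higher genes of 14 are too few to be a trait of the list. Tmem8c, which encodes the fusion protein myomaker, was at 5.69 and 0.516 FPKM (11.0-fold) and Myf6, a myogenic factor of mature fibres, at 4.43 and 0.478 FPKM (9.27-fold). The 2 higher genes were the laminin receptor Itga7, which Schwann cells can also express (31.4 and 83.6 FPKM, 2.66-fold), and Megf10 (8.26 and 18.3 FPKM, 2.22-fold). Mef2c, a transcription factor of muscle and other tissues, was at 13.3 and 9.91 FPKM. Of the 10 dystrophin complex genes 3 were lower, among them Dmd (2.98-fold) and Sgca (5.44-fold). The widely expressed Dag1, Lama2 and Sgcb were 1.39-fold, 1.47-fold and 1.13-fold lower. Relative to the median gene, Chrnb1 joined the lower genes of the first list, the second had 4 lower, and Megf10 came within 2-fold. Genes named in these lists beyond the 3 highest were picked after their values were seen, and Asph, Pfkm, Itga7, Dmd and Sgca overlap other genes in the tables.

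Markers of heart were at low levels, and several slow members are also cardiac genes. Of 8 cardiac markers 2 reached a mean of 1 FPKM and 0 were lower or higher, and the 8 summed to 5.05 and 7.10 FPKM. Tnni3, cardiac troponin I, was at 2.54 and 4.65 FPKM (an estimated 74 and 93 reads) and Myh6 at 1.38 and 0.802 FPKM (296 and 117 reads). In the Zeb2 cKO library the level of Tnni3 was above those of the slow members Tnni1, Myl2 and Myl3. Pln was at 0.277 and 0.793 FPKM, and Nppb was listed at 0 in the control and rested on 1 estimated read in the other library.

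Genes of smooth muscle and of the cytoskeleton of other cells were mostly within 2-fold. Of 22, 18 stayed within 2-fold, as did 10988 of all 12903 measured genes, so this count is not particular to the list. The median log2 ratio of the 22 was 0.33. Vim, vimentin, was at 1166 and 2146 FPKM, and the cytoplasmic actins Actg1 and Actb at 650 and 715 FPKM and at 584 and 697 FPKM. The exceptions were Smtn (5.06-fold), Myh14 (4.81-fold) and Nes (2.69-fold), which were lower, and Actn1 (3.05-fold), which was higher. Over all genes 6.25% were lower and 8.59% higher. Acta2, the smooth muscle actin, was at 60.7 and 78.3 FPKM. So the non-sarcomeric actins did not share the 9.73-fold ratio of Acta1.

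Measured markers of other tissues that adjoin a nerve or reach it with blood were higher or within 2-fold, in the same libraries in which muscle genes were lower. Over all 12903 measured genes 8.59% were higher. The tendon and cartilage lists, with 1 higher gene each, are too small to set against that share. The 7 adipocyte markers summed to 218 and 529 FPKM, and 4 of 6 measured (Fabp4, Cfd, Adipoq and Plin1) were higher, by 2.42-fold to 2.64-fold. The 5 tendon markers summed to 140 and 236 FPKM, with Thbs4 at 123 and 208, Fmod at 10.8 and 15.4 and Tnmd at 4.96 and 6.35 FPKM, and Scx alone of 4 measured was higher (3.16-fold, its locus overlapping Bop1). The 5 erythroid markers summed to 121 and 362 FPKM, with Hbb-b1, Alas2 and Hba-a1 higher by 4.18-fold, 3.20-fold and 2.10-fold, the globins being uncertain because they overlap near-identical copies. Of 6 cartilage and bone markers Col2a1 alone was measured and was 2.39-fold higher, and Bglap and Sp7 were under a mean of 1 FPKM. Matn1 rested on 1 estimated read in the control library and was listed at 0 in the Zeb2 cKO library, which is no measured difference. Relative to the median gene, 2 adipocyte markers (Fabp4 and Cfd), 2 erythroid markers (Hbb-b1 and Alas2) and Scx were still 2-fold higher and Col2a1 was not. The part of these other tissues in the muscle values was not tested.

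**Figure D5:**
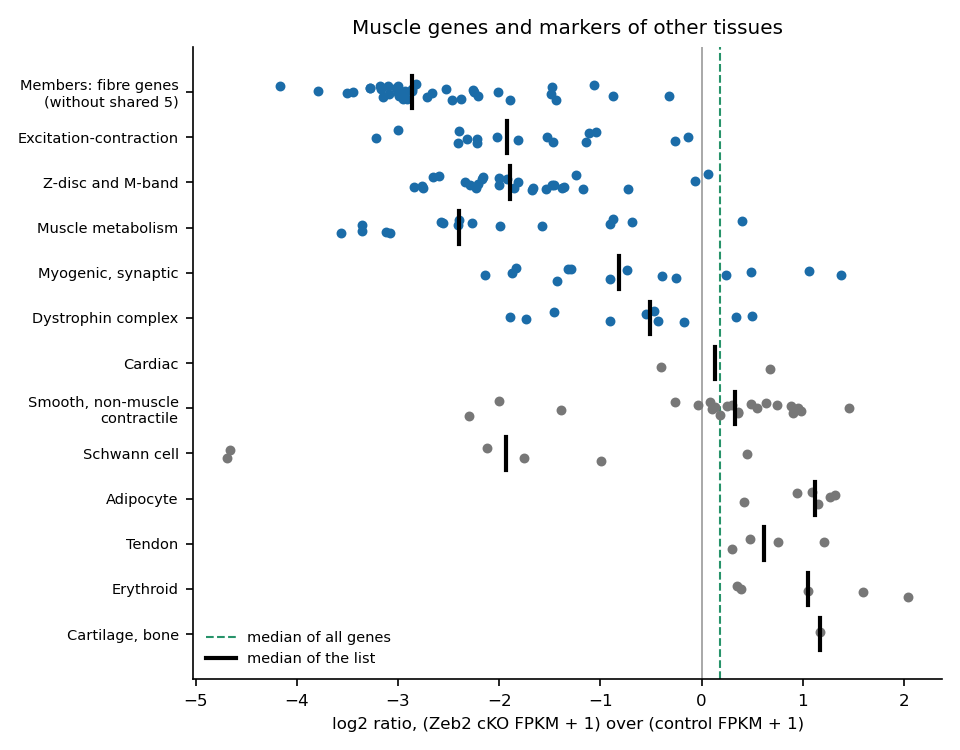
log2 ratio of Zeb2 cKO to control with a pseudocount of 1 FPKM (x axis) for each measured gene of the members not shared with non-muscle cells and of 12 further lists (y axis); thick bars are list medians and the dashed line is the median of all genes, 0.18. The member median is -2.86, the excitation-contraction, Z-disc and metabolism lists have medians of -1.92, -1.89 and -2.40, and the adipocyte, tendon and erythroid lists lie above 0.

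Across the 37 measured members not shared with non-muscle cells, the level in the control library and the FPKM ratio had a Spearman's rho of 0.01, and over the 14 fast members it was -0.42, which describes genes of 1 pair of libraries. Among the fast members the low Myh1 and Myh2 had the highest ratios. Members of low level stood at both ends of the order, Myh7 near the top and Tnnt2 at the bottom.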

How the data were processed

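RNA of pooled sciatic nerves was sequenced by the authors from TruSeq libraries, per the labels' protocols. CASAVA, TopHat, Cufflinks and Cuffdiff and the build mm9 are named, without versions, per the submitters' processing notes. The deposited FPKM values are the authors' Cufflinks estimates, 1 per RefSeq transcript with a status, per the file headers. The deposited coverage signal is mean depth per base, not scaled to library size. Each table is listed under both samples of its group, so it was assigned to the group.

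Only rows with the status OK in both libraries were kept (295 of 28107 were not), and FPKM was summed per symbol (21965 genes). Reads were estimated as coverage times length over 52.7 bases, the lowest cluster of single-transcript genes. Coverage over FPKM was 1.47 times higher in the control library. Intervals are Clopper-Pearson (95%) on these reads, moved to the FPKM scale, with a scipy 1.17.1 script tested on simulated data. FPKM tables keep no whole reads, and with 1 library per group no test was made. All 43 members, Zeb2 and the 3 highest genes by level of each of 12 further lists are named, except for items that are not reported here; 3 of their 154 symbols were matched by RefSeq accession (GRCm38.p6). Members and lists were chosen with earlier results of these data known. Other pseudocounts, filters, scalings and row rules were tried.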

Additional observations from a re-analysis of the deposited data

Results flagged for a closer look

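A transcript row that the sums leave out held more signal than the rows they use. NM_001110140 of Atp2a2, left out because its status was LOWDATA in both libraries, was listed at 38.3 FPKM in the Zeb2 cKO library and 25.4 FPKM in the control library. No row was compared by spread, since each group has 1 library.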

How the results depend on the processing

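No paired analysis was possible because 1 control and 1 Zeb2 cKO table were analysed here, which also kept any library from being left out. Of 42 measured members, 32 kept their direction and side of 2-fold under all 8 alternatives of pseudocount, filter, scaling, status and row, and Myh7 and Tnnt2 under the 7 that gave them a value. A pseudocount of 5 took Tnni1, Myh3, Myl4, Ttn, Myod1 and Chrna1 within 2-fold, rescaling to the median gene, a shift of 0.18, took Casq2 to -1.04, and Tpm3 turned to -0.10 with it and to -0.0162 with upper quartile scaling. Over all genes, the lower count was 529 with a pseudocount of 5 and 457 at 3-fold, and the higher count 477 with a pseudocount of 5, 739 at a mean of at least 5 FPKM and 401 at 3-fold. Higher genes were 57.9% of those past 2-fold as deposited and 46.0% after rescaling. The member median was -2.93 with a pseudocount of 0.1, -2.25 with 5, -2.89 at a mean of at least 5 FPKM and -2.93 after rescaling. The fast median was -2.84 with a pseudocount of 5 and -3.10 after rescaling, and the slow median -4.07 with 0.1 and -1.58 with 5. The shared median was -1.68 after rescaling, -1.60 with upper quartile scaling and -2.28 with the top row of each symbol. By estimated reads, the fast share of troponin I was 92.9% in the Zeb2 cKO and 97.3% in the control library, that of troponin T 97.9% and the adult fast share of heavy chains 74.4% in the control library. With the top row, the fast troponin I share was 98.8% in the control and 97.1% in the Zeb2 cKO library. The fast troponin T share was 94.0% in the control and 93.9% in the Zeb2 cKO library. A pseudocount, filter or threshold moves values by its construction, and other causes were not tested. The 3 lists without shared members, overlapping genes or heavy chains, chosen after the data were examined, left 35 of 37, 33 of 37 and 32 of 36 members lower, and the share of Atp2a2 with rows of every status was also added then.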
